A study of Mus musculus with 2 samples.

Results

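Heat shock proteins and their J-domain partners were examined in mouse hematopoietic stem cells (HSCs) sorted by expression of SATB1, a chromatin organizer of lymphoid cells. The members were chosen by symbol alone: Hspa, Hspb, Hspd, Hspe, Hsph and Dnaja, Dnajb or Dnajc followed by a digit, Hsp90 genes, and the regulators and co-chaperones Hsf1, Hsf2, Bag1, Bag2, Bag3, Stip1 and Ahsa1. This gave 79 of the 23210 genes in the files. RNA had been sequenced from 2 libraries, 1 of Satb1-Tomato (-) cells, here SATB1-negative, and 1 of Satb1-Tomato (+) cells, here SATB1-positive. Both came from CD150-positive, Flt3-negative LSK cells (lineage-negative, Sca-1-positive, Kit-positive stem and progenitor cells) that carry a Tomato reporter of Satb1. Strain, age, treatment and the number of animals behind each library are not stated in the labels. The comparison asks how far each gene in SATB1-positive HSCs departs from its level in SATB1-negative HSCs. The family was put forward with ratios of these libraries already known, so every ratio below is a description and none was tested.

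Heat shock proteins keep other proteins folded. HSP70 proteins bind exposed hydrophobic stretches of a client and release them in a cycle driven by ATP; J-domain proteins, encoded by Dnaj genes, deliver the client and start ATP hydrolysis, and HSP110 and BAG proteins promote nucleotide exchange. HSP90 acts later, on kinases and steroid receptors among others, and the chaperonin HSP60 with its lid HSP10 folds proteins inside mitochondria. Some of these genes are transcribed at all times. Others are switched on by stress, in the cytosol through the heat shock factor HSF1 and in the endoplasmic reticulum (ER) through the unfolded protein response. In HSCs, protein synthesis is kept low and the handling of misfolded proteins bears on self-renewal.

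Values are FPKM, fragments scaled to transcript length and to library size, so levels can be compared between genes. With 1 library per group there is no replicate check. A ratio is log2((SATB1-positive FPKM + 1)/(SATB1-negative FPKM + 1)). Throughout, the SATB1-negative level comes first and the SATB1-positive level second, and higher or lower means in the SATB1-positive library. To pass the rule of size a ratio had to reach 1 or -1, and the larger of both levels 5 FPKM. Folds are plain ratios of FPKM, and the range after a fold is its 95% interval for counting error alone, from estimated fragments. Depth was estimated at 35220000 and 26780000 fragments, in that order. Satb1 was at 2.37 and 8.26 FPKM, 3.48-fold higher (3.02 to 4.01) in the library labelled positive. Other surface genes differed too, some of the stated gate and some, Cd48 and Cd34 among them, not named in it. Cd48, which is low on the most primitive HSCs, was at 47.6 and 145 FPKM and passed the rule of size. Flt3, although both libraries were sorted as Flt3-negative, was at 17.3 and 27.1 FPKM, and Cd34 at 167 and 248 FPKM. The CD150 gene Slamf1 was at 15.97 and 11.9 FPKM, 1.34-fold lower (1.23 to 1.46). Kit was at 318 and 286 FPKM, Ly6a (Sca-1) at 64.5 and 73.9 FPKM and the leukocyte gene Ptprc at 80.5 and 87.1 FPKM. Over the 11873 genes that reached 1 FPKM in either library, called measured, the median ratio was -0.0059. In bulk RNA, more cells of a type and more RNA per cell cannot be told apart.

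Of the 79 members, 67 reached 1 FPKM in either library and 59 reached 5 FPKM. By the rule of size 2 members, Hspa1a and Hspa1b, were higher in the SATB1-positive library and 0 were lower. Among all 9308 genes with at least 5 FPKM, 1.31% passed as higher and 0.688% as lower. Past 1.5-fold on FPKM + 1, 3 members were higher, these with Dnajc6, and 0 were lower, beside 3.8% and 2.9% of all genes. The median ratio of the 67 measured members was -0.017, with 32 above 0 and 35 below. Counting error was small at these levels: the interval of the fold left out 1 for 39 of the 59 members with 5 FPKM, and for 66.9% of all such genes with a transcript length. Such an interval does not cover the spread between sorts or animals.

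The start regions of the members bear on the split into stress-inducible and constitutive genes, so the stretches with matches to known stress elements are shown before the values. RefSeq windows from 250 bases before to 50 bases after the start (build GRCm38.p6, the assembly of mm10) were matched for 64 members. HSF1 binds inverted repeats of GAA. A pair of such units, GAANNTTC or TTCNNGAA, each its own reverse complement, was searched on both strands. It occurred in 8 of 9 heat-inducible members with a window, Dnajb1 being the exception, against 17.0% of 27025 genes and 15.1% of 32851 windows. Of the 7 constitutive HSP70 and HSP110 genes with a window, 0 had a match; Hspa8, Hsp90ab1 and the heat-inducible Hsp90aa1 had no window and were not searched. Other members did hold the pair: 2 of 6 mitochondrial, 2 of 5 other small heat shock, 4 of 26 other J-domain and 1 of 6 ER-stress-inducible genes with a window, and 17 of the 64 members in all. The 250 bases before the start of Hspa1a, at chr17:34972157-34972406 on the minus strand, and of Hspa1b, at chr17:34959239-34959488 on the minus strand, are shown because these are the members past the rule of size. Capitals mark the pair.
Hspa1a: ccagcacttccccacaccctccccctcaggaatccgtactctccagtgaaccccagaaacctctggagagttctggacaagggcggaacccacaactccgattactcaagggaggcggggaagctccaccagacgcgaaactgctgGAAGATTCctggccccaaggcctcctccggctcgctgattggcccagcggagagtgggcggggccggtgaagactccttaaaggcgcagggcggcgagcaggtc
Hspa1b: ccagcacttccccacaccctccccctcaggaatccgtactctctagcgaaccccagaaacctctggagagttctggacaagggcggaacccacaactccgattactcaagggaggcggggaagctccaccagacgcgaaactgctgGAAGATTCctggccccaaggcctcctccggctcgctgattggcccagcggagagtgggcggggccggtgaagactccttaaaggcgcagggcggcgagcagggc
The stretches were identical at 98.8% of 250 positions. Written with the Hspa1a base first and counted from the 5′ end, the 3 differences were C44T, T47C and T249G, and the pair began 104 bases before the start in both genes.

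Further matches are shown for Hspb1, Hspd1 and Hspe1 and for the ER stress element. A link of the pair to any ratio was not tested. Hspb1, a small heat shock protein gene, had 2 pairs at chr5:135887801-135887830 on the plus strand. Hspd1 and Hspe1, which encode HSP60 and HSP10, start from opposite strands of one region, and their windows hold the same 3 overlapping pairs at chr1:55088054-55088081. A triple repeat, in which a further unit follows the pair on either strand with the same spacing, and which therefore overlaps the pair, occurred in 0.603% of all windows. It was found in 4 of the 64 members, Hspd1, Hspe1, Hsph1 and Dnajb6. Capitals again mark the pairs.
Hspb1: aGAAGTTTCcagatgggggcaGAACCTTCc
Hspe1, plus strand: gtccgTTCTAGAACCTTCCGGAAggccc
Hspd1, minus strand: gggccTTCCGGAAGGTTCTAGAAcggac
The ER stress element, CCAAT and CCACG with 9 unset bases between them on either strand, occurred in 0.119% of all windows and in 3 of 6 ER-stress-inducible members with a window. No other member had it. These were Hspa5 at chr2:34772020-34772048 on the plus strand, Dnajc3 at chr14:118937822-118937850 on the plus strand and Hsp90b1, on the minus strand, with 1 match at chr10:86705633-86705661 and 1 at chr10:86705528-86705556. Capitals mark the element.
Hspa5: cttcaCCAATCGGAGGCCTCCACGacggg
Dnajc3: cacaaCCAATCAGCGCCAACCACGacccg
Hsp90b1, farther from the start: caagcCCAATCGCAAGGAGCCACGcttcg
Hsp90b1, nearer to the start: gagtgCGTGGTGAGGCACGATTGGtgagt
A match describes letters in these windows and is not evidence of binding.

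Among the heat-inducible genes, the HSP70 pair Hspa1a and Hspa1b stood apart from the rest. Both encode the stress form of cytosolic HSP70, which is scarce in unstressed cells. Hspa1a (ENSMUSG00000091971.3, chr17:34969190-34972156 of mm10, minus strand) was at 5.61 and 15.2 FPKM. Hspa1b (ENSMUSG00000090877.3, chr17:34956436-34959238, minus strand), with 9951 bases between the genes, was at 10.4 and 28.6 FPKM. Their ratios of 1.29 and 1.38 ranked 84 and 75 from the top among the 9308 genes with at least 5 FPKM. Fragments cannot be assigned safely between these copies: 58.8% of the 50-base words of the Hspa1a transcript also occur in Hspa1b. Added together, which removes that split, the pair was at 15.99 and 43.8 FPKM, 2.74-fold higher (2.58 to 2.92; about 1492 and 3109 fragments). Hspa1b was 1.85 and 1.88 times the level of Hspa1a, values that depend on how shared fragments were allotted. Part of the Hspa1a exon, 19.01% of its exonic bases, overlaps Gm20481 on the opposite strand. The third gene of this cluster, Hspa1l, is best known from the testis. It begins 546 bases from Hspa1a on the opposite strand and was at 0.481 and 0.592 FPKM.

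Markers of other cell types, which the lineage-negative, Sca-1-positive, Kit-positive gate is meant to remove, also differed between the libraries, and their part in the Hspa1a and Hspa1b values was not tested. All 15 T and natural killer (NK) cell markers had a ratio above 0, and 9 passed the rule of size; their summed level was 36.1 and 149 FPKM. Among those with 5 FPKM, the interleukin receptor gene Il2rb had the highest ratio, at 1.69 and 13.6 FPKM, and the T cell kinase gene Lck the lowest, at 10.98 and 23.2 FPKM. The most abundant was the chemokine gene Ccl5, at 8.88 and 36.7 FPKM. Of 8 basophil and mast cell markers 7 were above 0 and 6 passed as higher, with sums of 320 and 729 FPKM. Among the 6, Fcer1a, at 1.75 and 9.70 FPKM, and Ms4a2, at 2.03 and 9.93 FPKM, could pass only as higher. The most abundant, the protease gene Prss34, was at 107 and 359.8 FPKM. Ratios ran from -0.15 for Gata2, a transcription factor gene that HSCs also express, at 153 and 137 FPKM, to 2.01 for Mcpt8, at 24.8 and 103 FPKM. Neutrophil markers were split, with 5 of 9 above 0 and 4 below, a median of 0.12, 3 past the rule of size as higher and 1 past 1.5-fold as lower. Their sums of 1777 and 3586 FPKM were carried by Mpo, at 437 and 1528 FPKM, and Elane, at 490.3 and 1081 FPKM, granule enzyme genes that granulocyte progenitors also express. The late granule gene Camp had the lowest ratio, -0.59, at 84.8 and 55.98 FPKM, and Ltf, S100a8 and Ngp were also below 0. Of 8 stromal markers, with sums of 37.5 and 92.7 FPKM, 5 were measured. Those not measured were Col3a1, at 0.0537 and 0.0489 FPKM, Lepr, at 0.126 and 0.189 FPKM, and Pdgfra, at 0.0498 and 0.0766 FPKM. Of the 5, 4 passed the rule of size as higher, among them Pdgfrb, which at 3.25 and 10.6 FPKM could pass only as higher. Among these, Col1a1, the most abundant, was at 16.8 and 48.3 FPKM and Sparc, with the lowest ratio, at 5.46 and 11.97 FPKM; Cxcl12, under 5 FPKM, was at 4.19 and 2.87 FPKM. None of these 40 markers was listed at 0 in either library.

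Hsp90aa1 had the next highest ratio among the heat-inducible genes. It encodes the inducible cytosolic HSP90 and was at 276 and 406 FPKM, 1.47-fold higher (1.45 to 1.49), under both thresholds used here. Its ratio of 0.55 ranked 393 from the top. The constitutive cytosolic form, Hsp90ab1, was on the lower side, at 1143 and 947 FPKM, 1.21-fold lower (1.19 to 1.22). Hsp90aa1 thus stood at 24.2% and then 42.8% of the Hsp90ab1 level. Of the 50-base words of Hsp90aa1, 58.5% also occur in other transcripts, chiefly those of Gm12346, and 4.49% of those of Hsp90ab1 do.

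The remaining heat-inducible genes were level or lower. Dnajb1, a cytosolic J-domain partner of HSP70 whose window lacks the heat shock pair, was at 127 and 114 FPKM, 1.12-fold lower (1.08 to 1.15). Dnaja1, another cytosolic partner of HSP70, was at 134 and 117 FPKM, 1.15-fold lower (1.12 to 1.18). Dnajb4 was at 28.9 and 25.7 FPKM, 1.12-fold lower (1.05 to 1.199). The co-chaperone gene Bag3, which links HSP70 to selective autophagy, was at 10.1 and 9.04 FPKM, 1.11-fold lower (1.001 to 1.24). These 4 genes lay between ratios of -0.20 and -0.14, on the side opposite to Hspa1a and Hspa1b. Departures of this size were common, as the median absolute ratio over all measured genes was 0.17. Hsph1, which encodes the inducible HSP110, was at 45.8 and 46.3 FPKM (1.01-fold, 0.968 to 1.05).

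Small heat shock proteins hold unfolded clients without using ATP, and their heat-inducible genes, Hspb8 and Hspb1, were barely expressed. Hspb8, whose product works with BAG3, was at 2.41 and 0.396 FPKM, 6.10-fold lower (3.69 to 10.8) from about 137 and 17 fragments. Its ratio of -1.29 was the lowest of all members, and it stayed outside the rule of size because its higher level was under 5 FPKM. Hspb1 was at 1.15 and 0.642 FPKM, from about 28 and 12 fragments, with a fold interval that spans 1 (0.261 to 1.14). Both reached 1 FPKM in the SATB1-negative library alone, which fixed the sign of their ratios. Over the 10 heat-inducible genes the median ratio was -0.15, with 4 above 0 and 6 below, Hspb1 and Hspb8 among the 6. Over the 8 genes with at least 5 FPKM the median was -0.063. Neither median of the list lay on the side of Hspa1a and Hspa1b. The sum of the list was nevertheless 1.19-fold higher, at 642 and 762 FPKM, and Hsp90aa1 was its most abundant gene in both libraries.

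**Figure D1:**
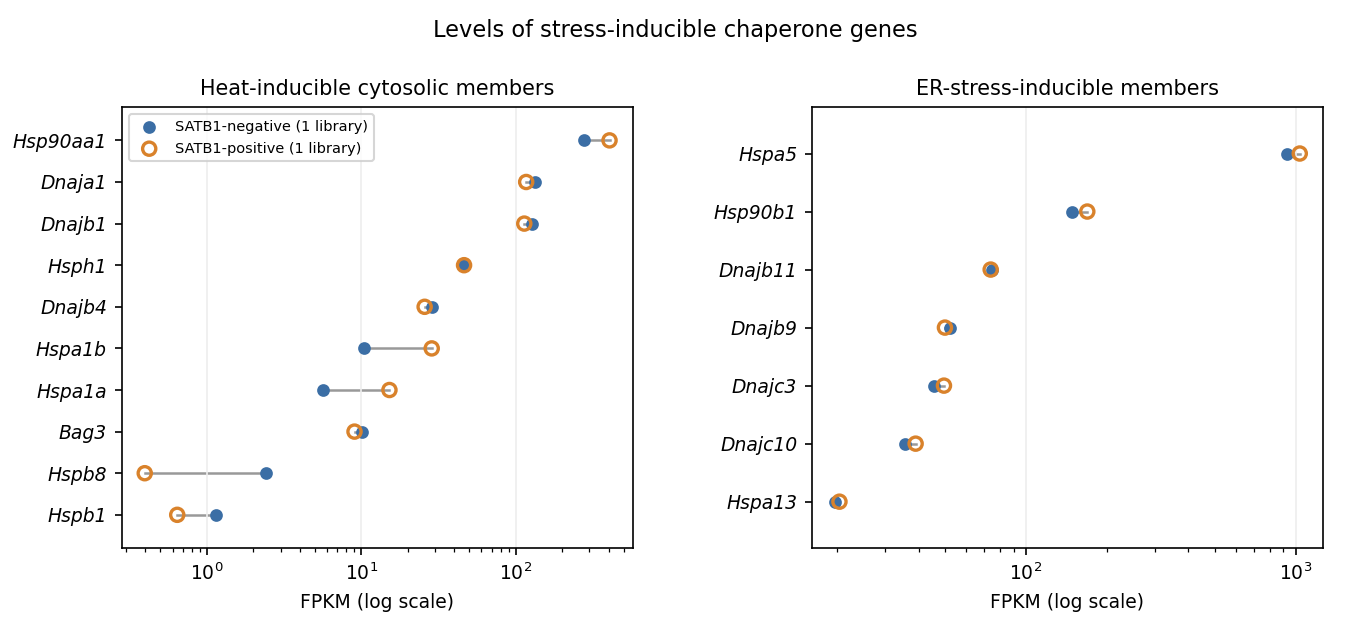
FPKM of the 10 heat-inducible and 7 ER-stress-inducible genes on log axes, with a filled point for the SATB1-negative and an open point for the SATB1-positive library and a line joining them. Hspa1a and Hspa1b lie to the right in the SATB1-positive library and Hspb8 to the left, whereas the points of every ER gene nearly coincide.

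The ER-stress-inducible genes were close to level, with a median ratio of 0.12 over 7 genes, 5 above 0 and 2 below, and 0 past either threshold. Hspa5 encodes BiP, the HSP70 of the ER, and was at 932 and 1035 FPKM, 1.11-fold higher (1.10 to 1.12). Hsp90b1, the HSP90 of the ER (GRP94), was at 148 and 169 FPKM, 1.14-fold higher (1.11 to 1.17). These are the abundant genes of the list. Dnajc3, a BiP partner that restrains the kinase PERK, was at 45.8 and 49.7 FPKM, and Dnajc10, an ER J-protein with reductase activity, at 35.5 and 39.0 FPKM. Dnajb9, an ER J-protein that assists the removal of misfolded proteins, was at 52.1 and 50.1 FPKM. The BiP partner Dnajb11 was at 74.8 and 74.0 FPKM and the HSP70-like gene Hspa13 at 19.6 and 20.4 FPKM. The 3 genes whose windows hold the ER stress element, Hspa5, Hsp90b1 and Dnajc3, had ratios of 0.15, 0.19 and 0.12. Dnajc10, without it in its window, had 0.13. A link of the element to these ratios was not tested.

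Constitutive here means only the 62 members outside both inducible lists, not genes shown to lack a stress response. Hspd1, Hspe1 and Dnajb6, whose windows hold the triple repeat, are among them. The median ratio of the 50 measured constitutive members was -0.025, with 23 above 0 and 27 below. None passed the rule of size, and Dnajc6 alone passed 1.5-fold on FPKM + 1. At 4.29 and 7.57 FPKM, it met the minimum of 5 FPKM through the SATB1-positive library alone. Hspa8, the always-expressed cytosolic HSP70 (HSC70), was at 3021 and 2673 FPKM, 1.13-fold lower (1.12 to 1.14). It ranked 5 among all genes by level in both libraries and held 36.1% and 32.7% of the summed FPKM of the 79 members. Of its 50-base words, 86.3% also occur in transcripts of 13 other genes, so this level depends on how fragments with several matches were handled, which the labels do not state.

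Within the HSP70 family the stress form was a small part in either library. Hspa1a and Hspa1b together made up 0.373% and 1.07% of the family's FPKM, while Hspa8 made up 70.5% and 65.4%. Relative to Hspa8, the pair stood at 0.529% and 1.64%. Hspa5 accounted for 21.8% and 25.3% and Hspa9, the mitochondrial HSP70, for 4.68% and 5.34%. The sum of the 11 HSP70 genes was 4284 and 4087 FPKM, 0.954-fold, and that of the 3 HSP90 genes 1567 and 1522 FPKM, 0.971-fold. Totals therefore differed less than the shares of their members.

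**Figure D2:**
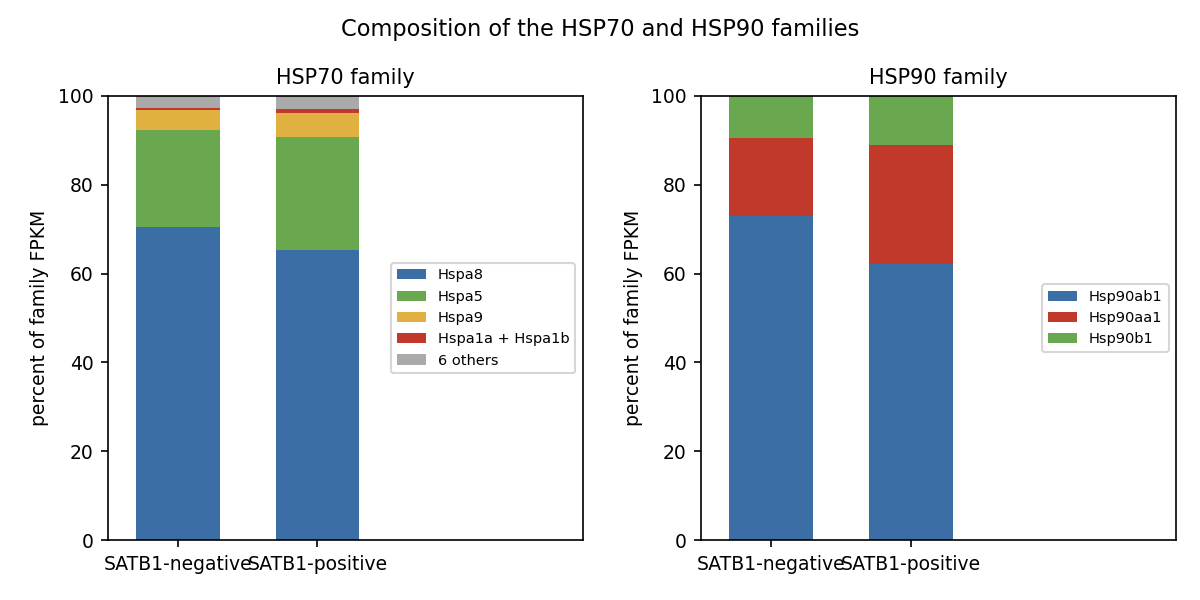
Percent of the summed FPKM of the HSP70 family (left, 11 genes) and the HSP90 family (right, 3 genes) held by each gene, with 1 stacked bar per library. Hspa8 and Hsp90ab1 fill most of each bar, and the share of Hsp90aa1 is 17.6% in the first bar and 26.6% in the second.

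Other constitutive HSP70 and HSP110 genes were nearly level. The HSP110 genes act as nucleotide exchange factors of HSP70. Hspa4 was at 68.9 and 71.4 FPKM (1.04-fold, 1.01 to 1.07) and Hspa4l at 28.1 and 26.1 FPKM, 1.08-fold lower (1.04 to 1.11). Hspa14, part of the ribosome-associated chaperone complex, was at 80.9 and 83.2 FPKM. Hspa2, known for its role in male germ cells, was at 8.85 and 10.3 FPKM. An exception was Hspa12b, an HSP70-like gene known from endothelial cells, at 4.47 and 2.08 FPKM, 2.15-fold lower (1.81 to 2.57). With under 5 FPKM in its higher library it could not enter the rule of size.

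Mitochondrial members had a median ratio of -0.057 over 9 genes, 3 above 0 and 6 below. Hspd1 (HSP60) was at 249 and 319 FPKM, 1.28-fold higher (1.26 to 1.31). Its partner Hspe1 (HSP10) was at 74.1 and 71.2 FPKM, 1.04-fold lower (0.962 to 1.13). The genes share the start region and the 3 overlapping pairs printed above. The level of Hspd1 over Hspe1 was 3.35 and 4.48. Of their 50-base words, 44.8% in each case also occur in other transcripts. Hspa9 was at 200.4 and 218 FPKM, 1.09-fold higher (1.07 to 1.11). Dnaja3, its J-domain partner, was at 48.7 and 47.5 FPKM. The import motor subunit gene Dnajc19 was at 38.4 and 32.8 FPKM, 1.17-fold lower (1.01 to 1.36), and the related Dnajc15 at 35.9 and 34.3 FPKM.

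Regulators and co-chaperones lay close to 0, with a median absolute ratio of 0.039 over 6 genes and ratios from -0.32 to 0.047. Hsf1, the master factor of the heat shock response, was at 49.4 and 44.3 FPKM, 1.12-fold lower (1.06 to 1.18). Hsf2 was at 5.66 and 5.52 FPKM (0.848 to 1.12 around a fold of 0.976). Stip1, which bridges HSP70 and HSP90, was at 115 and 119 FPKM, and Ahsa1, the activator of the HSP90 ATPase, at 140.0 and 138 FPKM. Bag1, a nucleotide exchange factor, was at 148 FPKM in both libraries. Bag2, which inhibits the ubiquitin ligase CHIP, was at 38.0 and 30.2 FPKM, 1.26-fold lower (1.17 to 1.35), the lowest ratio of this class at -0.32.

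J-domain genes numbered 45, of which 39 were measured. Their summed FPKM was 1533 in both libraries, and their median ratio was -0.024, with 17 above 0 and 22 below. By structural class, all 4 Dnaja genes were below 0 (median -0.13), as were 7 of 10 measured Dnajb genes (median -0.11), while 14 of 25 measured Dnajc genes were above 0 (median 0.051). These counts include the inducible and mitochondrial J-domain genes given above. Over all measured genes 49.0% had a ratio above 0.

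Among the J-domain genes in no other class, the largest ratio was that of Dnajc6. It encodes an auxilin, which brings HSC70 to clathrin-coated vesicles for uncoating, and was at 4.29 and 7.57 FPKM, 1.77-fold higher (1.603 to 1.94). Its ratio of 0.70 ranked 237 from the top. The related gene Gak, a non-member that encodes the widely expressed auxilin, was at 32.9 and 40.2 FPKM, 1.22-fold higher (1.17 to 1.27). Dnajc13, of endosomal sorting, was at 9.14 and 11.5 FPKM, 1.26-fold higher (1.19 to 1.33). The vesicle J-protein gene Dnajc5 was at 39.1 and 42.4 FPKM, 1.08-fold higher (1.04 to 1.13).

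Several other J-domain genes were modestly higher. Dnajc25 was at 4.59 and 6.73 FPKM, 1.47-fold higher (1.31 to 1.64). Dnajc7, which binds both HSP70 and HSP90, was at 53.6 and 69.0 FPKM, 1.29-fold higher (1.23 to 1.35). Dnajc2, the ribosome-associated partner of Hspa14, was at 70.4 and 87.8 FPKM, 1.25-fold higher (1.196 to 1.30), whereas Hspa14 itself was 1.03-fold (0.985 to 1.08). The histone chaperone gene Dnajc9 was at 88.2 and 99.5 FPKM, 1.13-fold higher (1.08 to 1.18).

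The most abundant of these J-domain genes were almost level. Dnajc8, of the spliceosome, was at 170 and 163 FPKM. Dnajb6, a suppressor of protein aggregation, was at 149.9 and 151.5 FPKM, and Dnaja2 at 115 and 109 FPKM. On the lower side, Dnajb14, an ER membrane protein, was at 10.6 and 7.997 FPKM, 1.33-fold lower (1.26 to 1.41), while its close relative Dnajb12 was at 13.7 and 15.3 FPKM (1.11-fold higher, 1.01 to 1.22). Dnajb2 was at 8.92 and 7.27 FPKM, 1.23-fold lower (1.03 to 1.47), and Dnajc12 at 7.40 and 5.68 FPKM, with an interval that spans 1 (0.542 to 1.06). Dnaja4 was at 9.47 and 8.30 FPKM; 44.1% of its exonic bases overlap Wdr61 on the opposite strand, which was at 109.9 and 99.3 FPKM.

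**Figure D3:**
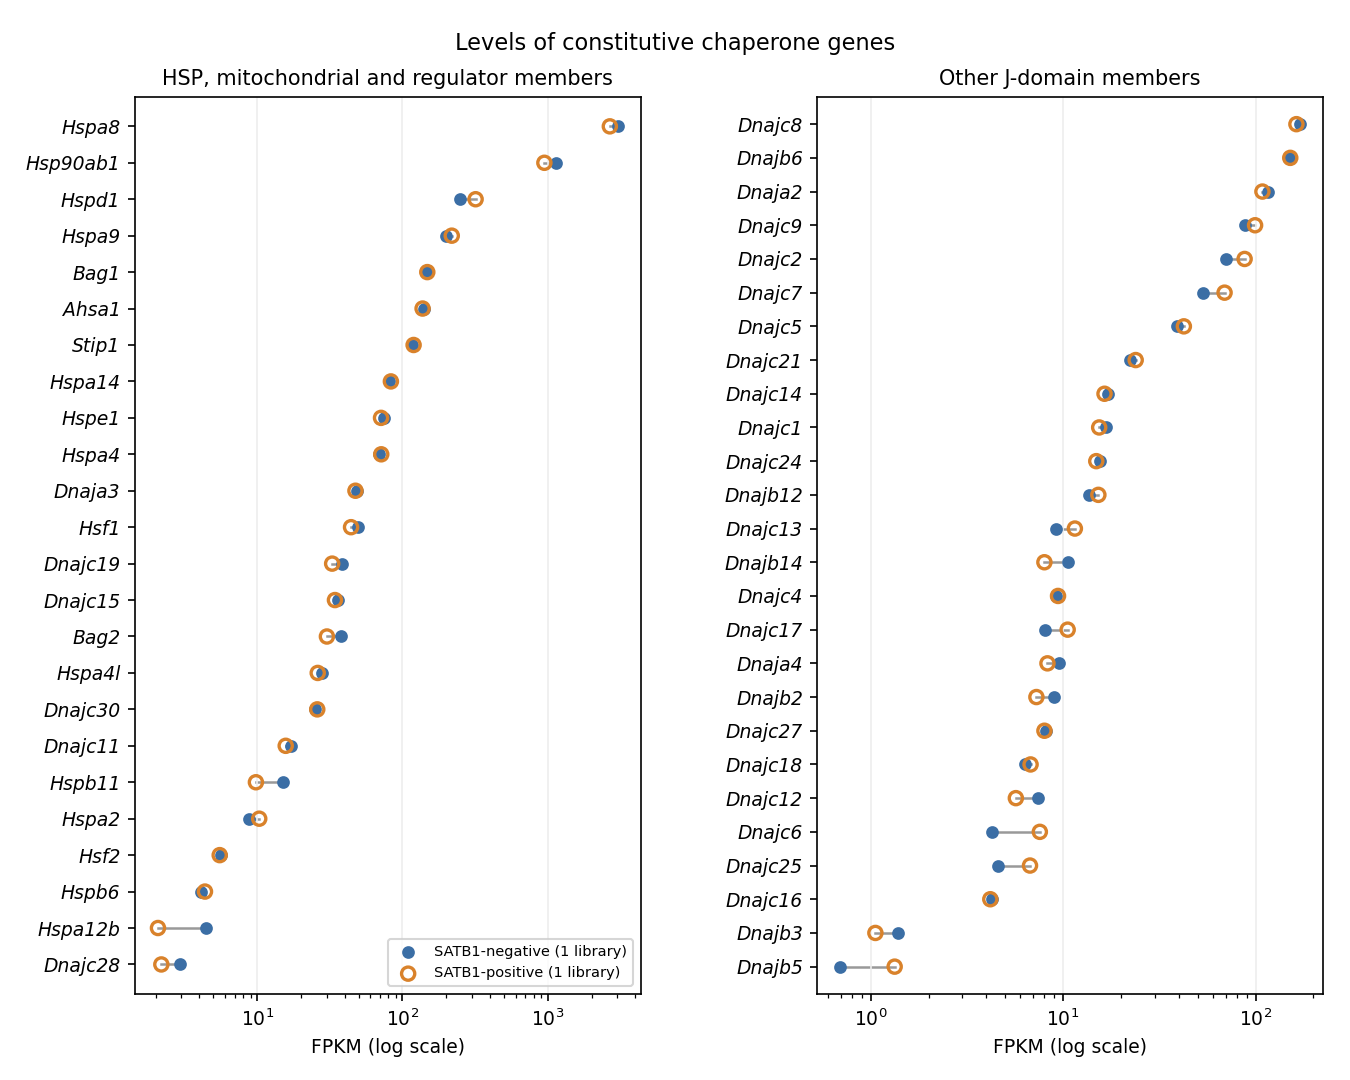
FPKM of the 50 measured constitutive members on log axes, filled for the SATB1-negative and open for the SATB1-positive library, ordered by mean level. Most pairs of points overlap; Hspa12b and Hspb11 on the left and Dnajc6, Dnajc25 and Dnajb5 on the right are the pairs that lie farthest apart.

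Of the 6 other small heat shock members, 2 were measured and 1, Hspb11, reached 5 FPKM. Hspb11, which despite its name encodes a subunit of the intraflagellar transport machinery, was at 14.99 and 9.80 FPKM, 1.53-fold lower (1.21 to 1.96), with a ratio of -0.57. It was the member with at least 5 FPKM that had the lowest ratio, 298 from the bottom of the 9308 genes. Hspb6 was at 4.13 and 4.37 FPKM. Altogether 12 members stayed under 1 FPKM in both libraries, namely Dnajb7, Dnajb8, Dnajb13, Dnajc5b, Dnajc5g, Dnajc22, Hspa1l, Hspa12a, Hspb2, Hspb3, Hspb7 and Hspb9. Several of these are known from testis or muscle. Of the 12, Dnajb8, Dnajc5b and Hspb3 were listed at 0 in both libraries and Dnajc5g in the SATB1-positive library.

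**Figure D4:**
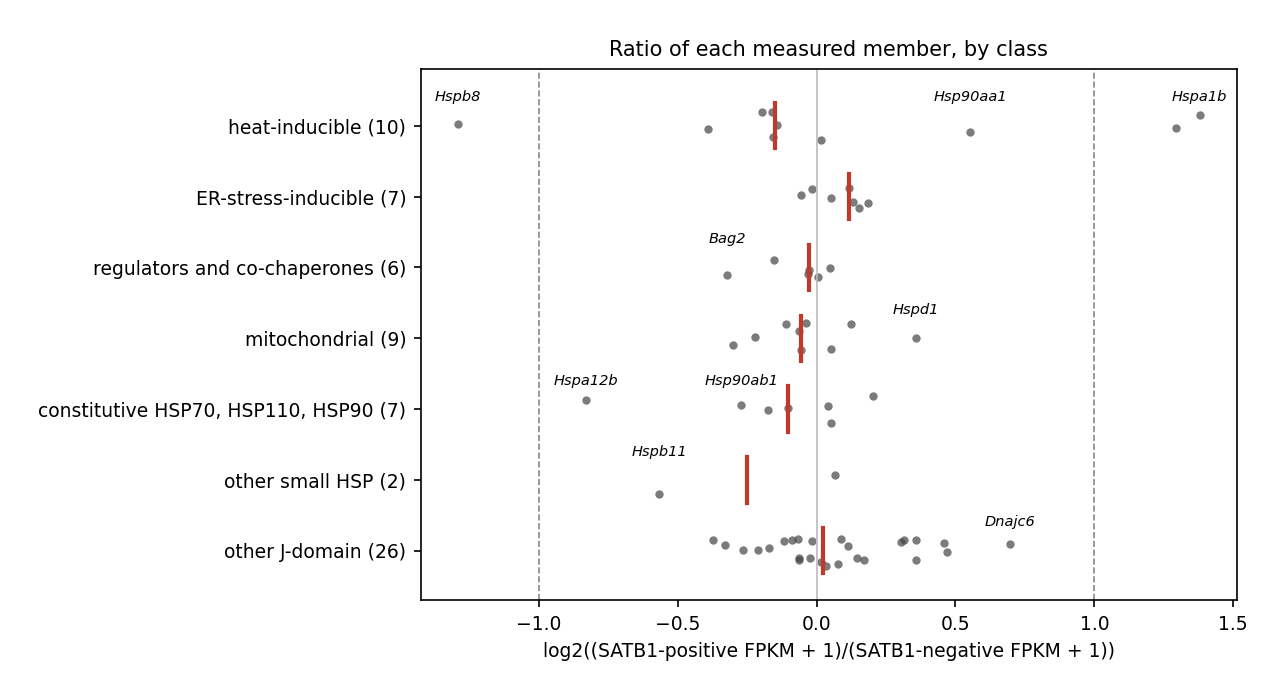
Ratio of each of the 67 measured members on a log2 scale by class, with the number of genes in brackets, a red bar at the median and dashed lines at -1 and 1; vertical scatter within a class has no meaning. Points outside the dashed lines are Hspb8 on the left and Hspa1a and Hspa1b on the right, and every class median lies between -0.25 and 0.12.

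The rest of the folding machinery was read from fixed lists of non-members. Of 26 measured co-chaperones, 16 had a ratio above 0 and 10 below, with 0 past either threshold and a median of 0.026. Ptges3 (p23), the most abundant and a partner of HSP90, was at 285 and 280.1 FPKM. Ratios ran from -0.40 for Tomm34, at 49.3 and 37.0 FPKM, to 0.42 for Aarsd1, at 47.1 and 63.3 FPKM. Chaperonin TRiC and prefoldin, which fold actin and tubulin, had a median of -0.00089 over 13 measured genes, 6 above 0 and 7 below. Their most abundant gene, Cct5, was at 411.4 and 411.1 FPKM, and their lowest ratio was that of Cct4, at 406 and 342 FPKM. Pfdn2, at 38.3 and 59.2 FPKM, was 1.54-fold higher (1.45 to 1.64) and the one gene of this list past 1.5-fold.

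ER folding and unfolded protein response genes had a higher median, 0.20, with 14 of 18 above 0, 0 past the rule of size and 1 past 1.5-fold. That gene was Calr, the calcium-binding chaperone calreticulin, at 204 and 332 FPKM, 1.63-fold higher (1.59 to 1.67). Pdia3, an oxidoreductase that works with calreticulin and the most abundant gene of the list, was at 363 and 444 FPKM, 1.22-fold higher (1.21 to 1.24). The lowest ratio was that of Ddit3 (CHOP), a stress-induced transcription factor, at 28.4 and 22.3 FPKM. Xbp1, a transcription factor of the same response, was at 173 and 156 FPKM, 1.11-fold lower (1.08 to 1.15).

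Immediate early genes, which are switched on within minutes of many stimuli, were spread around 0. Of 18 measured, 12 had a ratio above 0 and 6 below, the median was 0.10, and 0 passed the rule of size. Nr4a1, the most abundant, was at 1072 and 764 FPKM, and Fos at 406 and 486 FPKM. Ppp1r15a (GADD34), a phosphatase subunit that restores translation after stress, was at 473 and 279 FPKM, 1.70-fold lower (1.67 to 1.73). It was the one gene of this list past 1.5-fold as lower. The highest ratio among those with at least 5 FPKM was that of Btg2, at 85.7 and 126 FPKM.

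**Figure D5:**
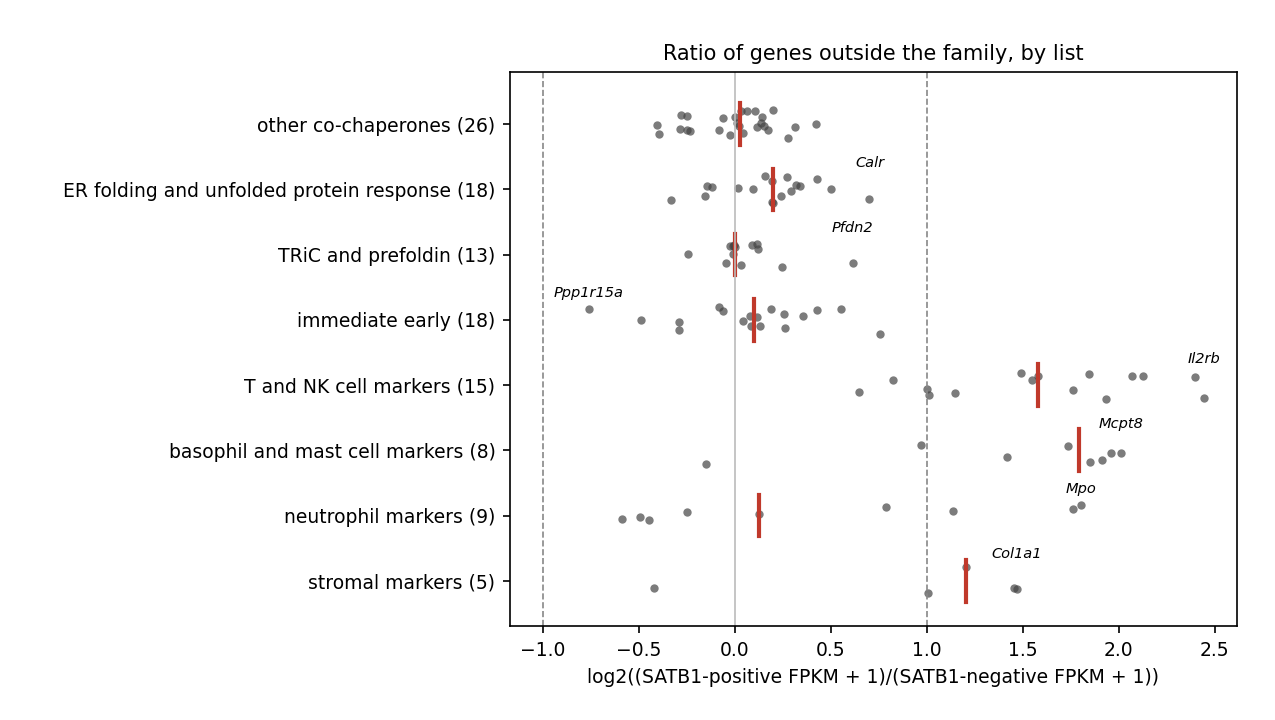
Ratio of measured non-member genes on a log2 scale by list, with the number of genes in brackets, a red bar at the median and dashed lines at -1 and 1; vertical scatter has no meaning. The 4 upper lists, of folding and early response genes, stay between the dashed lines, while all 15 T and NK cell markers lie to the right of 0. Of these 15, 7 were measured through the SATB1-positive library alone, which fixed their side.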

How the data were processed

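RNA from 1 SATB1-negative and 1 SATB1-positive library was prepared with the miRNeasy and SMARTer Stranded kits, per the labels' protocols. The deposited values are FPKM, 1 per symbol, per the file headers. Tools listed, with no roles, are Cufflinks 2.2.1, TopHat2 2.0.13, SAMtools 0.1.19 and Bowtie2 2.2.3, with build mm10, per the submitters' processing notes; annotation and strand setting are not stated there. Without strand, antisense genes cannot be told apart.

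Of 23235 rows, 25 with symbols turned into dates were left out. Depth was searched for whole-fragment steps of single-exon genes in the GENCODE M21 annotation of the same build: 66.4% of 143 and 68.7% of 163 low values came out whole within 0.05 fragments, against 10% at random, with a length offset of 210 bases. The depth was chosen for this share. Fold intervals are exact (Clopper-Pearson) at 95%, cover counting error only and treat PCR copies as independent. Word sharing used the shortest RefSeq-linked transcript, or the shortest of all where none was linked. The length of that transcript also turned FPKM into fragments, so fragment counts and the widths of the fold intervals depend on it. Procedures were tested on simulated data. Python 3.11.15, pandas 2.3.3 and SciPy 1.17.1 were used.

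Members and lists were chosen with earlier results of these data known. Values are given for every inducible member, members past 1.5-fold and the 3 most abundant of each other class. They are also given for the extremes and most abundant gene of each non-member list (among genes with 5 FPKM). Satb1 and the surface genes listed with it were given as a check of the labels. Other named genes were chosen after their values were seen. Alternatives were other pseudocounts, scalings and minimum levels.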

Additional observations from a re-analysis of the deposited data

How the results depend on the processing

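No paired analysis was possible because each group has 1 library, and for the same reason no library could be left out. Counts past a threshold depended on small numbers. With a pseudocount of 5, the count of members past the rule of size as higher was 1 and not 2, since Hspa1a had a ratio of 0.93. With a minimum of 1 FPKM, 1 member, Hspb8, passed as lower. The count past 1.5-fold as lower, 0 as reported, was 1 with a pseudocount of 0.1 and 1 with upper-quartile scaling (Hspb11 in each case). It was 2 with scaling to a common sum (Hspb11 and Hspa12b) and 2 with a minimum of 1 FPKM (Hspb8 and Hspa12b). The common sum was above both deposited sums, so all values rose against the fixed minimum and pseudocount. Of 57 alternative values for the counts and class medians, the other 51 stayed within set bounds. These were 1.5 times the reported count, or the reported median's order-statistic interval over the members, which are not replicates. Within these bounds, the count past 1.5-fold as higher was 2 and not 3 with a pseudocount of 5 and with a minimum of 10 FPKM. Dnajc6 was the member lost in each case. The median over all members lay between -0.037 and 0.0049, so its sign is not settled. Of 67 measured members, 64 kept the sign of their ratio under every pseudocount and scaling; Bag1, Dnajb6 and Hsph1 changed it with upper-quartile scaling, all from ratios of 0.015 or less. Counting Hspa1a and Hspa1b as 1 summed gene, chosen after seeing the data, gave a heat-inducible median of -0.16. Depth limits the members under 1 FPKM, where few fragments lie behind a value.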
